A study of Mus musculus with 6 samples.

Results

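The transcriptome described here is that of wild-type (WT) mouse bone marrow-derived macrophages, read in the 3 libraries whose labels give the WT genotype, out of 6 libraries in the series. The other 3 carry the label Mettl3-/- (KO) and were not compared. All 55401 genes of the deposited table were ranked by their mean FPKM over the 3 WT libraries. FPKM counts fragments scaled by transcript length and by the depth of the library, so that levels of different genes can be set side by side per length. Levels, ranks and ratios between genes therefore depend on the length used. The deposited values imply a length of 1479 bases for Lyz2 and 6112 for Npc2, for example. The cells were grown from the femur and tibia marrow of C57BL/6 mice, after lysis of red blood cells, in DMEM with 10% fetal bovine serum, antibiotics and M-CSF at 40 ng/mL for 7 days. The labels place that culture before a treatment that they do not name, and give no untreated or treated group, so whether these cells were untreated is not known. The age and sex of the mice are not in the labels, which also do not say whether the 3 libraries came from separate mice or cultures, so the spread between them may be technical. The libraries are poly(A) RNA, so transcripts without a poly(A) tail were selected against.

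Macrophages are phagocytes that engulf particles and dying cells, digest them in lysosomes, present antigen and release cytokines and complement. In culture, M-CSF acts through its receptor, the tyrosine kinase encoded by Csf1r, to keep marrow precursors alive and drive them into macrophages. The transcription factor PU.1, encoded by Spi1, is required for this lineage and binds many macrophage promoters at purine-rich sites built on the core GAGGAA.

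Several of the highest entries in the table share their sequence with another gene, and the sequences are shown because they bear on the ranks. Gm22133 (ENSMUSG00000076036) ranked the second at 12710.4 ± 119 FPKM (SD, n = 3, as for all values below), although it is annotated as a miRNA of 109 bases. It lies inside Ftl1, the ferritin light chain gene, on the same strand of chromosome 7, and 88 of its bases are in the coding part of the Ftl1 transcript, at chr7:45458110-45458197 of GRCm38, minus strand. Gm27597, the entry at rank 21 (1556 ± 33.2 FPKM), is annotated as a miRNA of 80 bases, and all of them are coding bases of Rpl19, a ribosomal protein gene, at chr11:98029413-98029492, plus strand. Both are printed 5′ to 3′ on the coding strand from GENCODE transcripts, with no base singled out in capitals.

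Gm22133: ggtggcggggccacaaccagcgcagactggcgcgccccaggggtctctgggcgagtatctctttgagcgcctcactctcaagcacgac
Gm27597: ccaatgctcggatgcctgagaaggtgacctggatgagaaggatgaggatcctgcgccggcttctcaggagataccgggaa

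A fragment with these letters can come from the messenger RNA of the host gene, and at such short lengths FPKM turns few fragments into a large value. Gm22133 held 103793, 106876 and 106878 estimated counts, against 426591, 434248 and 435859 in Ftl1. By CPM, the estimated counts scaled to the library total and not divided by length, Gm22133 ranked 47 and Gm27597 ranked 1381. Another such entry, Gm26377 inside the elongation factor gene Eef1a1, was at 955 ± 20.2 FPKM. Of 26 detected genes annotated as miRNA, 4 lay inside a coding gene on the same strand and were at least 95% identical to its transcript.

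Another kind of duplicate entry comes from chromosome 1, where a stretch of nuclear DNA repeats part of the mitochondrial genome. The first 120 bases of mt-Atp6, which encodes a subunit of the mitochondrial ATP synthase, and of its nuclear copy Gm10925 are the same, as shown for chrMT:7927-8046 (plus strand) and chr1:24614532-24614651 (minus strand) of GRCm38.

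mt-Atp6: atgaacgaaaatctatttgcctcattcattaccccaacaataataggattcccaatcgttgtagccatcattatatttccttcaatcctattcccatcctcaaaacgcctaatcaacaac
Gm10925: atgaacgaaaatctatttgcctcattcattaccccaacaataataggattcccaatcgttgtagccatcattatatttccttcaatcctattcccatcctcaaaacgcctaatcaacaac

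Over their aligned length, Gm10925 matched mt-Atp6 at 678 of 678 bases, Gm28661 matched mt-Co2 at 681 of 681, Gm28437 matched mt-Co3 at 783 of 783 and Gm29216 matched mt-Co1 at 482 of 483. Where the bases are the same, a read cannot be assigned to one member of a pair by sequence. The copies ranked high: Gm29216 was at 5717 ± 269 FPKM, Gm28661 at 1510.4 ± 102, Gm10925 at 1357 ± 191 and Gm28437 at 1136 ± 74.2.

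In all, 10385 of 55401 listed genes (18.7%) were detected, meaning an FPKM of at least 1 in each of the 3 WT libraries, and 32928 had a count of 0 in all 3. Among genes annotated as protein-coding, 9133 of 21897 (41.7%) were detected. This share is the reference for each count of detected list members below. Levels of at least 10 FPKM in all 3 libraries were reached by 3706 genes, of at least 100 by 386 and of at least 1000 by 34. The median detected gene was at 6.73 FPKM. The libraries held 67280390, 68001446 and 68658821 estimated counts, with 19666 to 19731 genes above 0. The counts are estimates and not tallies of single reads, so a count of 0 is given as listed, without an upper limit, and does not show that a gene was silent. Summed FPKM was concentrated in few entries. The highest took 4.30% ± 0.0581 of it, the 10 highest 21.8%, the 100 highest 45.5% ± 0.134 and the 1000 highest 72.8%. Of estimated counts, which weight long transcripts more, the same ranks took 2.10%, 12.5%, 28.6% and 60.2%. The 10 highest by FPKM include Gm22133 and Gm29216, described above. Genes annotated as miRNA took 4.77% of summed FPKM but 0.187% of counts.

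**Figure D1:**
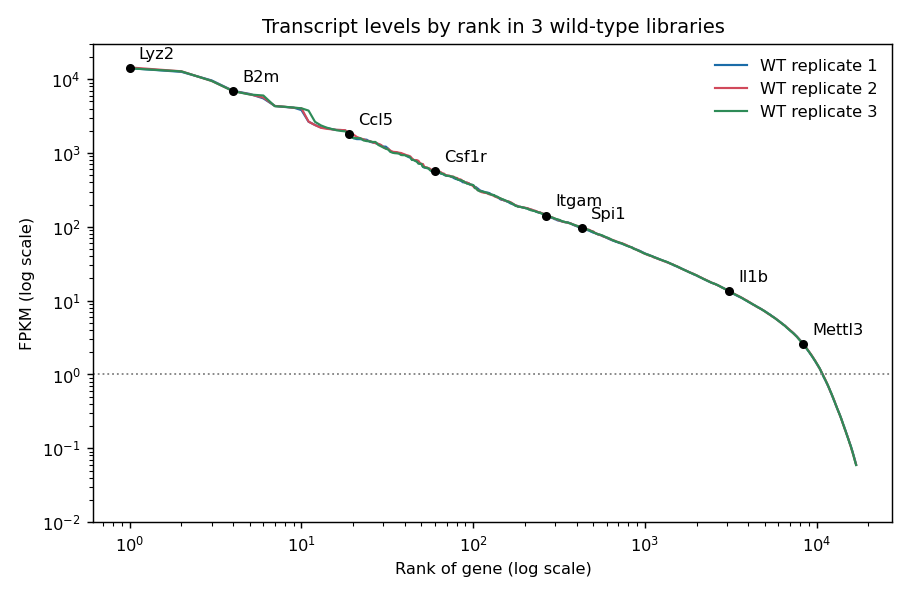
FPKM of the 17000 highest entries of each WT library against their rank in that library, both on log scales, with 1 line per library and black dots at the mean FPKM and the rank by mean of 8 named genes. The dotted line is 1 FPKM, and the 3 lines lie on each other over most of the range, from Lyz2 at 14189 FPKM to Mettl3 at 2.59.

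The gene with the highest level was Lyz2, which encodes lysozyme M, an enzyme that cuts bacterial cell walls. Lyz2 (ENSMUSG00000069516, chr10:117277331-117282321, minus strand) read 14098, 14431 and 14037 FPKM in WT replicates 1, 2 and 3, and was the highest in each. Its paralog Lyz1 was at 39.9 ± 3.61 FPKM, so Lyz2 stood 357-fold higher (SD 26.6 over libraries), and reads that fit both cannot be told apart. Csf1r, the M-CSF receptor (ENSMUSG00000024621, chr18:61100598-61131134, plus strand), read 568, 569.8 and 569 FPKM at rank 60, with its 3 libraries at nearly one value. Adgre1, which encodes the F4/80 antigen, read 493, 494 and 489 FPKM at rank 72, and its 3 libraries were likewise close. Itgam, which encodes the CD11b chain of the Mac-1 integrin (ENSMUSG00000030786, chr7:128062640-128118491, plus strand), read 171, 92.3 and 164 FPKM, with replicate 2 apart from the others. Gm49368, a coding entry that overlaps Itgam on the same strand, read 101, 175 and 100.5 FPKM, high in the replicate where Itgam was low. Summed over Itgam and Gm49368, the counts were 101778, 99924 and 100295, and the low value of replicate 2 was no longer there.

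Lysosomal genes were 5 of the 30 highest entries. Psap, the precursor of the saposins that help degrade sphingolipids, was at 6252 ± 55.7 FPKM. The cathepsins Ctsd, Ctss and Ctsb, proteases of the lysosome, were at 4329 ± 21.3, 4114 ± 16.1 and 2117 ± 12.8 FPKM, and the membrane protein Lamp1 at 1203 ± 18.2. All 40 listed lysosomal genes were detected, against a detected share of 41.7% among coding genes. Their median was 115.0 FPKM, against 6.73 for all detected genes. At a mean of 100 FPKM or more were 23 of them, while 349 of 21897 coding genes reached that level in all 3 libraries. The lowest were Arsb at 2.72 ± 0.108 FPKM, Ctsk, the cathepsin known from osteoclasts, at 4.07 ± 0.789, and Smpd1, the acid sphingomyelinase, at 8.09 ± 0.952. The proton pump that acidifies the lysosome was present as a full set: 17 of 17 subunit genes were detected, with a median of 85.8 FPKM. Within it Atp6v0c (151 ± 5.61), Atp6v1g1 (139 ± 1.74) and Tcirg1 (117 ± 0.563) were the highest. The lowest were Atp6v0a1 (9.33 ± 0.214), Atp6v1h (7.54 ± 0.224) and Atp6v0d2 (5.43 ± 0.515 FPKM).

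Among the 30 highest entries, 20 were nuclear coding genes, 5 were mitochondrially encoded, 2 were annotated as miRNA and 3 were pseudogene copies of mitochondrial genes. For 17 of them the lowest library lay above the highest library of the next gene, and for the other 13 the order was within the spread of the libraries. From Lyz2 to Ctss each step in the order was larger than that spread. Saa3, an acute-phase serum amyloid A gene, ranked 12 at 2655 ± 10.7 FPKM. Ccl5, a chemokine, ranked 19 at 1783 ± 19.3 FPKM, and the antiviral membrane proteins Ifitm3 and Ifitm2 were at 2005 ± 36.9 and 1441 ± 19 FPKM. Tmsb4x, which binds actin monomers, was at 1284 ± 7.17 FPKM and Itm2b, a membrane protein with a BRICHOS domain, at 1589 ± 4.2. Ranked by CPM, 17 of these 30 stayed among the 30 highest. The 10 highest genes by counts that are not among the 30 by FPKM were Gpnmb, a membrane glycoprotein of lysosome-rich cells (917 FPKM), Mpeg1, the pore-forming perforin-2 (1145), Csf1r, Ly6e (713), the selenium carrier Selenop (785), Eef2 (634), Rnf213 (119.7), Thbs1 (331), C1qc (1036) and C3 (377).

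**Figure D2:**
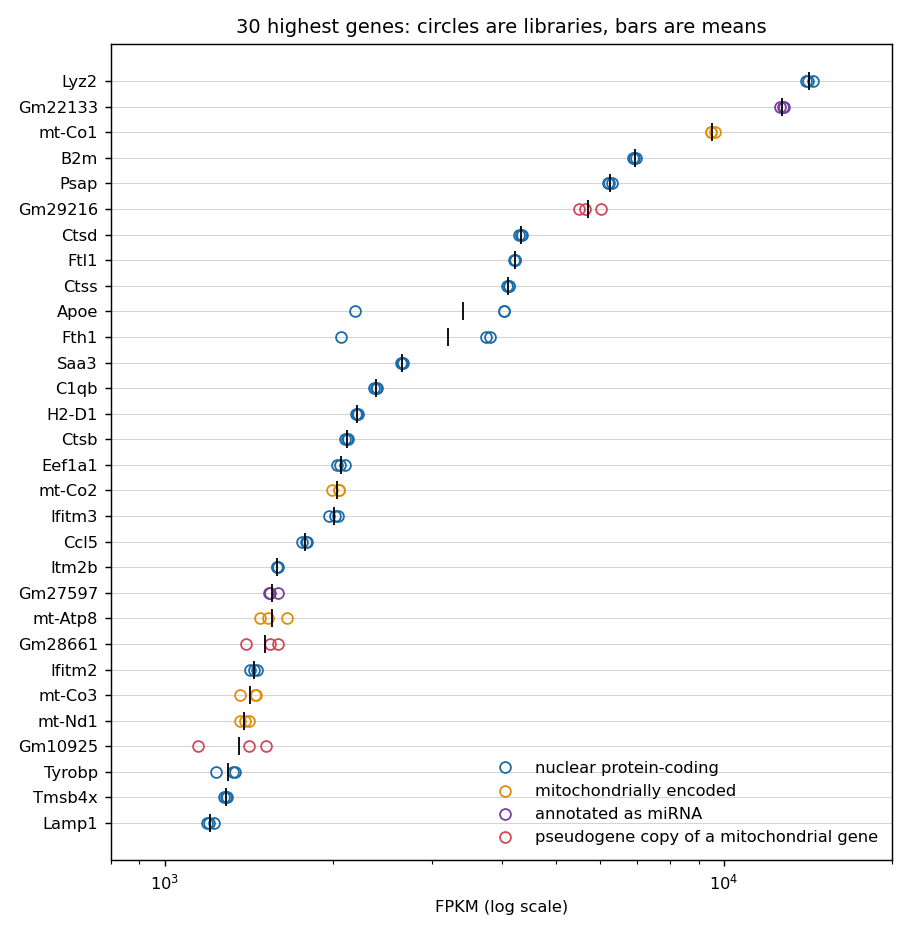
FPKM (log scale) of the 30 genes with the highest mean, with a circle for each of the 3 WT libraries, a black bar at the mean and colour for the annotation class. Circles lie close together for most genes, while Apoe has 1 circle (replicate 1) and Fth1 has 1 (replicate 2) far left of their other 2.

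Promoters were available for 16776 of the 21897 coding genes in the RefSeq table of GRCm38.p6, as windows from 250 bases before to 50 after the annotated start. GAGGAA, the core of PU.1 sites, was searched in the 250 upstream bases on both strands (as GAGGAA or TTCCTC). It was present in 22.2% of all these promoters, in 22.96% of those of detected genes and 21.7% of those of genes not detected, and in 31 of the 100 highest coding genes. By list it was in 10 of 20 promoters of the macrophage identity genes, 14 of 32 of the lysosomal genes and 14 of 66 of the ribosomal protein genes. List members without a matched window were left out. Each gene was searched at the first window listed for it, although there were 32851 windows for 27025 genes. The promoters of 3 macrophage identity genes are shown, Lyz2 (chr10:117282273-117282522, minus strand), Ctss (chr3:95526536-95526785, plus strand) and Itgam (chr7:128062390-128062639, plus strand). Each ends at the base before its RefSeq start, with matches in capitals. The Lyz2 gene as ranked above extends to 117282321, so part of its window lies inside that gene.

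Lyz2: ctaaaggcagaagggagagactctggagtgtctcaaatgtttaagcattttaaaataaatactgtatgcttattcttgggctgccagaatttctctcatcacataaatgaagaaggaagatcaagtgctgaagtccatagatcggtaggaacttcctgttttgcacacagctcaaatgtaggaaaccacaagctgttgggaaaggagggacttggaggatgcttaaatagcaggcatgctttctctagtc
Ctss: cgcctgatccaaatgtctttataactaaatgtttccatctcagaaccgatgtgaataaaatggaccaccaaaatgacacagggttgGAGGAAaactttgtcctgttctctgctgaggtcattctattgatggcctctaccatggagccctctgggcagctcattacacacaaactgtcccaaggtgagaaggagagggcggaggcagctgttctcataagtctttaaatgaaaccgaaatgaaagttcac
Itgam: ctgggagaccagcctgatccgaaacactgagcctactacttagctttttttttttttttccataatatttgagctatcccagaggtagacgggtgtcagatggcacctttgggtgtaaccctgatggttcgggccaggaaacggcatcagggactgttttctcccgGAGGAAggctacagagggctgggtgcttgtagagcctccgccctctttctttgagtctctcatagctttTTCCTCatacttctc

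The Lyz2 window holds no match, that of Ctss 1 and that of Itgam 2, so the highest gene of the table is the one of the 3 without these letters in its 250 bases. A match is a description of letters and not a binding site. Of 4 further motifs searched the same way on both strands, TATAAA was in 6.00% of promoters of detected genes and 16.9% of the others, and GGGCGG, the core of GC boxes, in 60.8% and 31.0%. CCAAT was in 36.5% and 36.0%, and TGACTCA, the AP-1 site, in 2.93% and 4.91%. The median GC content of the promoters of detected genes was 60.0%, against 51.6% for the others, and its part in these shares was not tested.

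The macrophage identity list was detected in 27 of 28 members, at a median of 350.1 FPKM. Cd68, an endosomal glycoprotein, was at 780.4 ± 14.7 FPKM, the adaptor Tyrobp, which carries activating signals for many surface receptors, at 1297 ± 54.6, the high-affinity IgG receptor Fcgr1 at 172 ± 0.486 and the efferocytosis receptor Mertk at 77.2 ± 0.852. The 2 lowest members were the fractalkine receptor Cx3cr1 at 3.25 ± 0.185 FPKM and the haemoglobin scavenger receptor Cd163 at 1.11 ± 0.28. Of 47 transcription factors listed for macrophages and related lineages, 38 were detected. Spi1 was at 96.4 ± 0.296 FPKM and Maf at 54.9 ± 1.21, while Cebpb was at 32.5 ± 2.6 and Cebpa at 8.62 ± 0.48. Nfe2l2, which controls antioxidant genes, was at 122 ± 2.03 FPKM. The erythroid factor Gata1 had a count of 0 in all 3 libraries, and the B cell factor Pax5 was at 0.011 ± 0.00563 FPKM. In the growth factor axis the receptor Csf1r stood 228-fold above its ligand Csf1 (2.54 ± 0.403 FPKM). The receptor subunits Csf2rb2 (96.3 ± 0.72) and Csf2rb (51 ± 0.277) of the GM-CSF and IL-3 receptors and Csf3r (92.8 ± 1.31), the G-CSF receptor, were also detected, and the ligands Il34, Csf3 and Il3 had a count of 0 in all 3 libraries.

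Genes listed for other cells that marrow holds ranged widely, and some lists were detected more often than the 41.7% of all coding genes. Of the T and NK cell list 20 of 29 were detected (69.0%), of the monocyte and progenitor list 14 of 22 (63.6%) and of the neutrophil list 8 of 14 (57.1%). Of the B and plasma cell list 6 of 15 were detected (40.0%), of the dendritic cell list 6 of 17 (35.3%), of the endothelial and adipocyte list 3 of 10, of the stromal and bone list 4 of 19 (21.1%) and of the erythroid and megakaryocyte list 2 of 16 (12.5%). The median of each of these lists was at most 5.85 FPKM. The 9 macrophage markers summed to 18657 to 19092 FPKM over the libraries, of which most was Lyz2. The 5 dendritic cell markers (Flt3, Zbtb46, Xcr1, Clec9a and Siglech) were all below 1 FPKM and summed to 0.154 to 0.259, while the highest member of the dendritic cell list, Bst2, which is also on the interferon list, was at 460.5 ± 6.55. The 4 erythroid markers summed to at most 0.0269 FPKM, with Hba-a1, Hbb-bs and Alas2 at a count of 0 in all 3 libraries. None of 14 listed genes of mast cells, basophils and eosinophils was detected, and 9 had a count of 0 throughout. Neutrophil genes were uneven. The highest were the receptor Csf3r at 92.8 ± 1.31 FPKM, the neutrophil collagenase Mmp8 at 52.3 ± 1.06 and the iron-binding lipocalin Lcn2 at 49.5 ± 1.51. S100a9 was at 35.5 ± 4.51 FPKM, S100a8 at 15.8 ± 1.15, the granule gene Ngp at 9.24 ± 0.711, and Mmp9 at 6.83 ± 0.23, while Camp was at 0.773 ± 0.247 and Ly6g, the defining surface antigen, had a count of 0 in all 3. The 3 monocyte markers were at 52.7 ± 0.301 (F13a1), 24.1 ± 0.727 (Ly6c2) and 6.64 ± 1.11 (Ccr2) FPKM, and the highest members of the monocyte and progenitor list were Hp, which encodes haptoglobin, at 165 ± 0.234 and S100a4 at 129 ± 1.41. The defining T cell markers were low, with Trac, the constant part of the T cell receptor alpha chain, at 2.45 ± 0.318 FPKM, Lck at 1.58 ± 0.194 and Cd3g, Cd3d and Cd3e at 0.968, 0.889 and 0.363. Other genes of the T and NK list were higher than that. Ccl5, which macrophages also make, led it at 1783 FPKM, followed by the coreceptors Cd4 at 18 ± 0.062 and Cd28 at 16.4 ± 0.0963. Of the granzyme genes, known from cytotoxic lymphocytes, Gzmc was at 15.2 ± 0.684 FPKM and Gzmb at 14 ± 0.738. Of the 4 NK markers 3 were detected, Nkg7 at 5.22 ± 0.958, Prf1 at 1.56 ± 0.245 and Ncr1 at 1.26 ± 0.0446, while Klrb1c was not detected. In bulk RNA a few cells with much of a transcript and many cells with little of it cannot be told apart, and which cells held these transcripts was not tested. Pf4, listed as a megakaryocyte gene, was at 180.5 ± 3.19 FPKM, while the defining megakaryocyte markers Itga2b and Gp9 were at 0.0267 and 0.0186. The 4 stromal markers were all below 1 FPKM, with Col1a1 the highest at 0.73 ± 0.0811. The highest B and plasma cell genes were Xbp1, a factor of the unfolded protein response, at 18.1 ± 1.16 FPKM, the proteoglycan Sdc1 at 14.6 ± 0.612 and the adaptor Blnk at 11.5 ± 0.135, while Ighm was at 3.94 ± 0.252 and the B cell antigen Ms4a1 at 0.0297. The endothelial and adipocyte list was led by Fabp4, which is also on the alveolar macrophage list, at 46.6 FPKM, with Pecam1 at 4.01 ± 0.13. In the osteoclast set Calcr had a count of 0 and Acp5 was at 18.9 ± 1.13 FPKM.

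**Figure D3:**
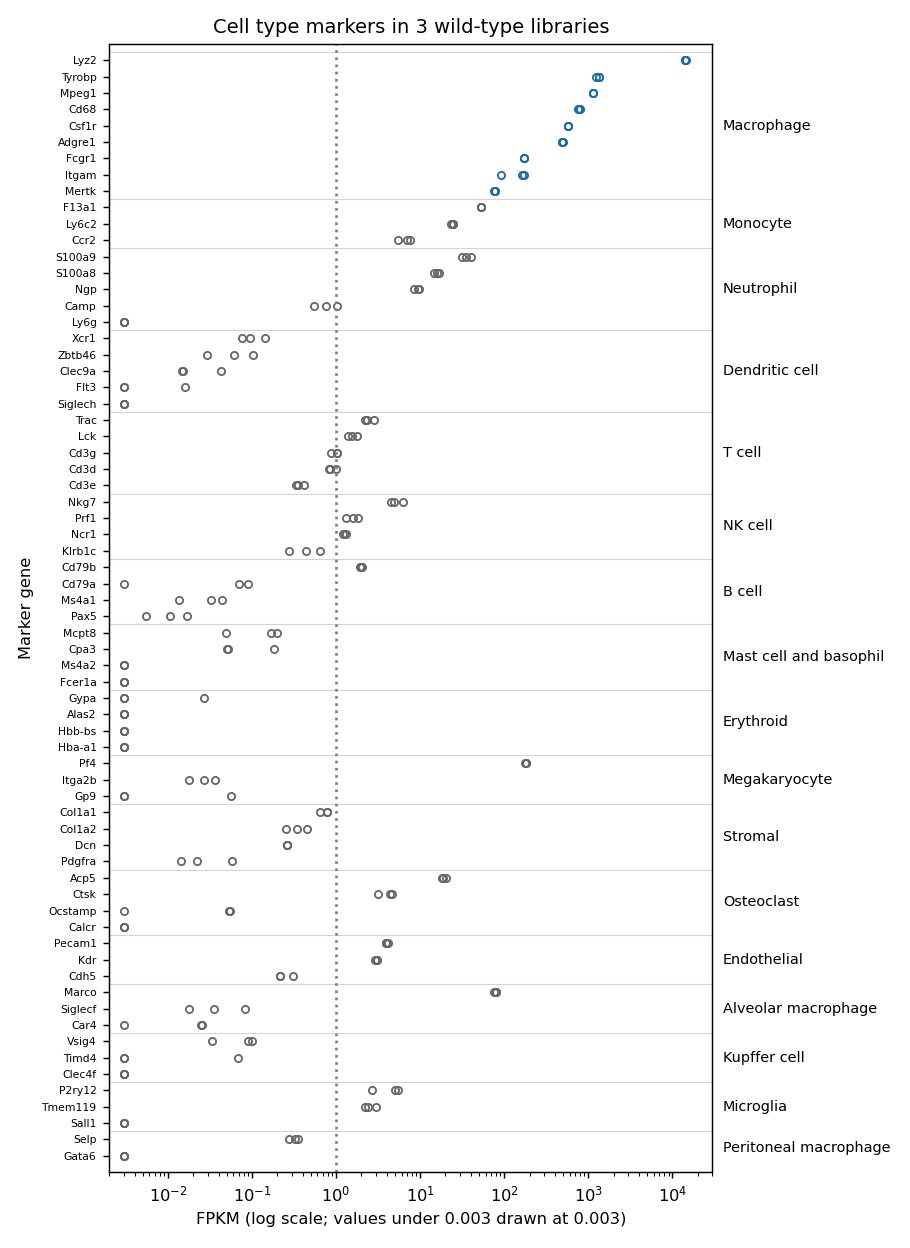
FPKM (log scale) of 68 cell type markers in the 3 WT libraries, 1 circle per library, grouped by the cell type they mark, with the dotted line at 1 FPKM and values under 0.003 drawn at 0.003. All 9 macrophage markers (blue) lie above 50 FPKM, and outside them Pf4 and Marco are the highest.

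Genes listed for macrophages settled in tissues were detected in shares on both sides of the 41.7% of all coding genes: 4 of 8 in the Kupffer cell list and 6 of 10 in the peritoneal and splenic list, but 33.3% in each of the alveolar and microglial lists. Of the alveolar list, 3 of 9 were detected: the scavenger receptor Marco (79 ± 2.49 FPKM), the fatty acid binding protein Fabp4 (46.6 ± 1.63) and Chil3 (26.1 ± 1.31), while Siglecf was at 0.0448 and Car4 at 0.0168. The detected Kupffer cell genes included Folr2 (18 ± 1.8) and Cd5l (12.6 ± 0.191), and Clec4f, the defining marker of that list, had a count of 0 in all 3 libraries. Of the microglial list 3 of 9 were detected at 1 FPKM or more in each library, among them P2ry12 at 4.38 ± 1.47 FPKM and Tmem119 at 2.52 ± 0.4. Sall1, the defining microglial factor, and Gata6, that of peritoneal macrophages, had counts of 0 throughout. The peritoneal and splenic list was led by Hmox1, which breaks down haem and is high in splenic macrophages, at 492 ± 1.08 FPKM and the iron exporter Slc40a1 at 15.5 ± 0.847.

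Phagocytic receptors were detected in 25 of 31 cases, beside 41.7% of all coding genes, with a median of 60.0 FPKM. The Fc receptor gamma chain Fcer1g was at 959 ± 36 FPKM, 1.35-fold below the other adaptor, Tyrobp. The IgG receptors Fcgr3 and Fcgr4 were at 444 ± 63.5 and 437 ± 4.4 FPKM, with Fcgr3 at 371, 482 and 480.1 in the 3 libraries, lowest in replicate 1. Itgb2, the CD18 chain that pairs with CD11b, was at 287 ± 4.27 FPKM, and the C-type lectin Clec4d at 271 ± 2.25. Cd209b had a count of 0 in all 3 libraries, and Timd4 and Tyro3, receptors for dying cells, were at 0.0229 and 0.0158 FPKM. The bridging ligand Gas6 was 2.31-fold above its receptor Mertk, and Mertk 1.97-fold above the related receptor Axl.

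Complement genes were split between a few very high members and many low ones. Of these, 16 of 23 were detected, beside 41.7% of all coding genes, with a median of 3.19 FPKM. At a mean of 100 FPKM or more were 7, while 349 of 21897 coding genes reached that level in all 3 libraries. The 3 chains of C1q, the recognition unit of the classical pathway, were at 2384 ± 17.7 (C1qb), 1036 ± 5.07 (C1qc) and 894 ± 12.3 (C1qa) FPKM. By FPKM the ratio of C1qb to C1qa was 2.67 ± 0.0540 and of C1qc to C1qa 1.16 ± 0.0215. The chains are built into the complex in equal numbers, but their FPKM were not equal. Not divided by length, C1qb was at 2915 CPM and C1qc at 2249, so the size of such ratios depends on the length used. Properdin (Cfp), which stabilises the alternative pathway convertase, was at 558 ± 5.32 FPKM, C3 at 377 ± 0.866 and the C3a receptor C3ar1 at 285 ± 3.55, and C3 stood 202-fold above C4b. Factor D (Cfd) and the terminal components Hc (C5), C6 and C9 had a count of 0 in all 3 libraries.

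Class I antigen presentation was high throughout: 21 of 21 genes were at a mean of 10 FPKM or more, with a median of 73.7. Of all 21897 coding genes, 3397 were at 10 FPKM or more in each of the 3 libraries. The light chain B2m was at 6919 ± 40 FPKM and the heavy chains H2-D1 and H2-K1 at 2207 ± 10.7 and 561 ± 1.15. B2m stood 3.14-fold (SD 0.0149) above H2-D1. The heavy chain genes are close paralogs, so the split of reads between them is uncertain. Class II genes were lower. Cd74, the invariant chain, was at 1018 ± 10.1 FPKM, and H2-Aa, H2-Ab1 and H2-Eb1 were at 174 ± 1.48, 166 ± 1.65 and 117 ± 1.12. The alpha and beta chains of I-A were at nearly one level, with a ratio of 1.05 ± 0.0155. H2-Ob was the only one of 16 listed class II genes not detected, at 0.165 ± 0.0164 FPKM.

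Sensors of microbes were broadly present. In the Toll-like receptor list 24 of 26 were detected, with Unc93b1, the chaperone of the endosomal receptors, at 284 ± 7.59 FPKM and Cd14, the lipopolysaccharide co-receptor, at 221 ± 2.14. Of the receptors themselves, Tlr13, which senses bacterial ribosomal RNA, was the highest at 131 ± 1.91 FPKM. Tlr2, a sensor of lipoproteins, was at 99.1 ± 1.46 FPKM. Tlr7, a sensor of single-stranded RNA, read 113, 42.2 and 113 FPKM, above Tlr2 in replicates 1 and 3 and below it in replicate 2, so the order of Tlr2 and Tlr7 by mean rests on that 1 library. Tlr4, the lipopolysaccharide receptor, read 4.34, 29.8 and 31.5 FPKM, low in replicate 1. Tlr9, for unmethylated DNA, was at 30.2 ± 0.515 FPKM and Tlr3, for double-stranded RNA, at 7.68 ± 0.697, while Tlr5 and Tlr11, sensors of flagellin and profilin, were at 0.751 ± 0.0907 and 0.249 ± 0.0384. Of cytosolic sensors and inflammasome genes, 24 of 25 were detected. Ifi204 was the highest at 187 ± 1.01 FPKM, followed by Zbp1, a sensor of left-handed nucleic acid, at 90.5 ± 1.06, the pore-forming Gsdmd at 68.5 ± 1.24 and the RNA helicases Dhx58 and Ddx58 (RIG-I) at 58.8 ± 0.483 and 47 ± 1.64. The DNA sensor Cgas was at 2.7 ± 0.888 FPKM.

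Interferon-stimulated genes were high while the interferon genes listed were not detected. Of 40 genes of the interferon list, 38 were detected, with a median of 48.0 FPKM. The tetherin gene Bst2 was at 460.5 ± 6.55 FPKM, Ifit3 at 249 ± 3.76, Gbp2 at 187 ± 0.553, Ifit2 at 175 ± 1.88 and Isg15, a ubiquitin-like modifier, at 165 ± 3.93. Irf7, the factor that amplifies type I interferon, was at 114 ± 1.92 FPKM. Ifnb1 and Ifng were the 2 members not detected, at 0.114 ± 0.0553 and 0.354 ± 0.0625 FPKM. No group labelled as unstimulated was used, so there is no reference level for these genes.

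Secreted signals were led by few genes. Among 32 cytokines 20 were detected, beside 41.7% of all coding genes. Progranulin (Grn), a lysosomal growth factor, read 372, 503 and 368 FPKM, highest in replicate 2. Osteopontin (Spp1) was at 304 ± 3.97 FPKM, Mif at 141 ± 3.88 and Tgfb1 at 52.4 ± 3.27. Inflammatory cytokines were lower, with Il1b at 13.4 ± 0.925 FPKM, Tnf at 9.27 ± 0.796 and Il10 at 5.99 ± 0.985. Il6 was at 0.0137 FPKM, above 0 in 1 library only, and the IL-12 family subunits Il12a and Il23a had a count of 0 in all 3. Among 24 chemokines 13 were detected, a share not far above that 41.7%. Ccl6 was at 559.9 ± 4 FPKM, Ccl8 at 219.6 ± 7.22, Ccl9 at 149 ± 3.96 and Cxcl16 at 121 ± 6.26. Ccl5 stood 42.5-fold above Ccl3 (42 ± 2.33 FPKM), and the stromal chemokine Cxcl12 was at 0.0726 ± 0.0259. Chemoattractant receptors were detected in 18 of 21 cases, led by C3ar1, the formyl peptide receptors Fpr1 (160.2 ± 3.74) and Fpr2 (95.6 ± 1.86), and Cxcr4 (88.7 ± 1.69).

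Genes used to mark polarised macrophages were mixed. Of 18 classical activation genes 11 were detected, with a median of 7.27 FPKM. Acod1, which makes itaconate, was at 183 ± 2.05 FPKM, Socs3 at 36.2 ± 0.566, Cd86 at 24.4 ± 0.385 and the inducible nitric oxide synthase Nos2 at 10.5 ± 0.104. Irf1, an interferon-induced factor, read 80.9, 70.8 and 40.6 FPKM and varied between libraries. Il12b, at 0.121 ± 0.0739 FPKM, and Slamf1, at 0.0647 ± 0.023, were not detected. Of 18 alternative activation genes 5 were detected, with a median of 0.396 FPKM. The receptors Il4ra and Mrc1 were at 85.2 ± 2.7 and 60 ± 0.229 FPKM and Chil3 at 26.1 ± 1.31, and Clec10a was also detected. Arginase 1 (Arg1) was at 0.398 ± 0.0602 FPKM, and Retnla and Ccl17 had a count of 0 in all 3 libraries. The shares were 61.1% and 27.8%, beside 41.7% for all coding genes.

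Metabolic and housekeeping groups were detected almost in full. Of 34 genes of lipid handling 30 were detected. Apoe, the lipoprotein component that carries cholesterol out of macrophages, was the highest and is described below with the libraries that stood apart, followed by Gpnmb at 917 ± 9.28 FPKM, Fabp5 at 439 ± 6.86 and the lysosomal cholesterol carrier Npc2 at 296 ± 0.683. In iron handling 16 of 20 were detected, led by the ferritin chains Ftl1 (4222 ± 15.4) and Fth1. The hormone Hamp was at 0.0404 ± 0.0699 FPKM. All 24 antioxidant genes were detected, with Prdx1 at 373 ± 4.42 FPKM and Gpx1 at 306 ± 49. Glycolysis genes were detected in 23 of 24 cases, with Pkm at 339.7 ± 9.03 FPKM and Aldoa at 308 ± 7.22, and all 21 citrate cycle genes were detected, with a median of 27.1 FPKM. The 13 mitochondrially encoded coding genes took 6.58% ± 0.246 of summed FPKM and 2.77% of counts, and mt-Co1, a catalytic subunit of cytochrome c oxidase, was the highest at 9523 ± 89.2 FPKM. Of 86 ribosomal protein genes 82 were detected, and they took 4.05% ± 0.0275 of summed FPKM. All 38 genes of the actin cytoskeleton and adhesion were detected, led by Tmsb4x and Actb (551 ± 19.6 FPKM), and all 21 annexins, galectins and S100 genes, led by Lgals3bp (647 ± 4.31) and Lgals3 (591 ± 5.22).

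Genes of protein upkeep were present nearly throughout. Detected were 19 of 19 chaperones of the endoplasmic reticulum, led by Calr (202 ± 3.11 FPKM), and 24 of 24 ubiquitin and proteasome genes, led by Ubb (804 ± 1.25). So were 16 of 16 genes of translation, led by Eef1a1 (2061 ± 31.2), and 12 of 15 heat shock genes of the cytosol and mitochondria. The inducible heat shock genes Hspa1a and Hspa1b were at 0.458 ± 0.148 and 0.857 ± 0.218 FPKM and were not detected, while the constitutive Hspa8 was at 254 ± 42.5. Of 16 genes of matrix degradation 15 were detected, with the protease Mmp14 at 119 ± 3.11 FPKM and fibronectin (Fn1), a matrix protein, at 1.39 ± 0.136.

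Cell division genes were low but present: 35 of 39 were detected, with a median of 3.17 FPKM. The proliferation marker Mki67 was at 7.7 ± 0.345 FPKM, Top2a, which untangles DNA at division, at 4.6 ± 0.282 and the replication clamp Pcna at 52.1 ± 4.97. The cell cycle inhibitor Cdkn1a was at 59.1 ± 0.749 FPKM. Of survival genes, Mcl1 was at 219 ± 1.87 FPKM, 272-fold above Bcl2 at 0.813 ± 0.0989 (SD of the ratio 37.7). Of 21 genes of the m6A machinery, which writes, reads and removes N6-methyladenosine on RNA, 17 were detected, with a median of 3.49 FPKM. The writers Mettl3 and Mettl14 were at 2.59 ± 0.323 and 1.83 ± 0.117 FPKM and the eraser Alkbh5 at 20.9 ± 0.504. Among genes annotated as long noncoding RNAs AW112010 was the highest at 617 ± 3.07 FPKM, far above Malat1 (31.9 ± 1.1) and Neat1 (18.6 ± 0.426).

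For several housekeeping genes, near-identical pseudogenes held more of the table's FPKM than the coding gene. Of 866 detected pseudogenes, 771 (89.0%) were at least 95% identical over at least 80% of their length to a coding transcript. Gapdh, the glycolytic enzyme often used as a reference gene, read 42.3, 34.8 and 17.6 FPKM, while its 16 detected near-identical copies summed to 880.8, 907.9 and 898.2 in the 3 libraries. The ribosomal protein genes Rpl17, Rpl7a and Rpl21 were at 68.6, 81.3 and 19.2 FPKM, and their copies summed to 655, 579 and 512. Reads that fit a gene and its copy cannot be told apart, so these levels are uncertain. With the copies added to their coding gene and only coding genes ranked, 5 of the 30 highest entries were replaced. Those that left were the 2 annotated as miRNA and the 3 pseudogene copies, which this ranking leaves out by design. Of the genes that entered, mt-Atp6, mt-Nd4 and mt-Nd4l had copies added, and Mpeg1 and C1qc entered at their own level.

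**Figure D4:**
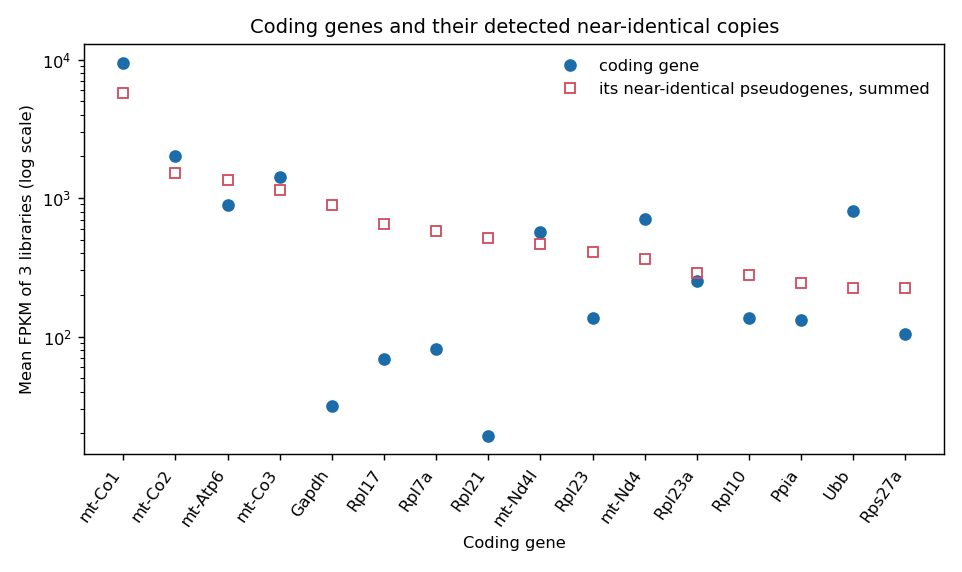
Mean FPKM over the 3 WT libraries (log scale) of 16 coding genes (filled circles) and of their detected near-identical pseudogenes summed (open squares), ordered by the summed copies. For Gapdh the copies sum to 896 FPKM against 31.6 for the gene itself, and for mt-Co1 the gene is the higher.

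Most genes had close values in the 3 libraries. The median coefficient of variation (SD over mean) was 7.33% for genes between 1 and 10 FPKM, 3.43% between 10 and 100, 1.77% between 100 and 1000 and 1.32% above 1000. Across all genes, which are not independent replicates, Pearson's r of log2(FPKM + 0.1) was 0.989 for each pair of libraries. No 2 libraries held the same values. Among genes with a mean of at least 10 FPKM, 96 of 3928 (2.44%) had 1 library apart by at least 1.5-fold while the other 2 lay within 10% of each other. WT replicate 1 was apart for 41 genes, replicate 2 for 30 and replicate 3 for 25, so each of the 3 was the one apart in some genes. The apart value was low in 61 genes, at a median of 0.540 of the others, and high in 35, at a median of 1.83.

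Genes with 1 library apart included some of the highest macrophage genes. Apoe read 2187, 4039 and 4034 FPKM, low in replicate 1, on 354081, 661330 and 663044 estimated counts. Its neighbour Apoc2, another apolipoprotein gene, read 48.9, 136 and 132 FPKM and was low in the same library. Gm44805, a coding entry that overlaps Apoc2 on the same strand, was at 53.1 FPKM in replicate 1 and had a count of 0 in the other 2, and the summed counts of Apoc2 and Gm44805 were still lower in replicate 1, at 6087, 8488 and 8230. Fth1, the ferritin heavy chain gene, read 3816, 2064 and 3756 FPKM, low in replicate 2, so that the ratio of Ftl1 to Fth1 ran from 1.10 to 2.05. The ratio of Itgb2 to Itgam, partners in one integrin, ran from 1.70 to 3.13, highest in replicate 2, where Itgam was low. The overlapping entry Gm49368 held counts in all 3 libraries, so the ratio depends on that entry in each. Itgam and Gm49368 summed to 272, 267 and 264 FPKM, against 290, 289 and 282 for Itgb2. The signalling genes Grb2 (52.4, 125 and 126 FPKM) and Rac1 (78.5, 25.4 and 78.8) were low in replicates 1 and 2 respectively, and the interferon-stimulated genes Ifi47 (44.7, 108 and 111) and Oasl2 (95.3, 97.1 and 45.3) in replicates 1 and 3 respectively. mt-Atp6 read 411, 1849 and 431 FPKM, high in replicate 2, where its nuclear copy Gm10925 was lowest (1514, 1145 and 1411). The sum of mt-Atp6 and Gm10925 was 1925, 2994 and 1842 FPKM, so replicate 2 stayed high.

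The genes with 1 library apart were set against the entries that overlap them. Of the 96 genes, 27 (28.1%) were overlapped on the same strand by another listed gene, against 21.8% of all 3928 genes at that level. Adding the overlapping entries brought the apart library back within 10% of the others for 2 of the 27, Itgam and Gm49368, which overlap each other. For the other genes the cause was not tested. Of the genes with a mean of at least 50 FPKM, the most variable was the processed pseudogene Gm12033, which read 8.9, 35.3 and 122 FPKM. Of the 10 most variable, 6 were ribosomal protein genes or copies of them: Rpl17-ps5 read 196, 22.5 and 95 FPKM, Rps27a-ps2 38.5, 174 and 289, Rpl17-ps8 61.9, 59.4 and 180.0, Rpl17-ps3 63.9, 220.2 and 102, Rps27rt 46.1, 72.7 and 151 and Rpl29 121, 37.7 and 136. The other members of these 10 were mt-Atp6, Rac1 and Hnrnpf, an RNA-binding protein gene that read 24.9, 82.3 and 81 FPKM, low in replicate 1. Processed pseudogenes of any parent gene at 10 FPKM or more had a median coefficient of variation of 11.9%. For pseudogenes named after ribosomal protein genes it was 15.5% at that minimum, against 2.95% for the ribosomal protein genes themselves. These groups were not matched for level, and the coefficient of variation fell with level.

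**Figure D5:**
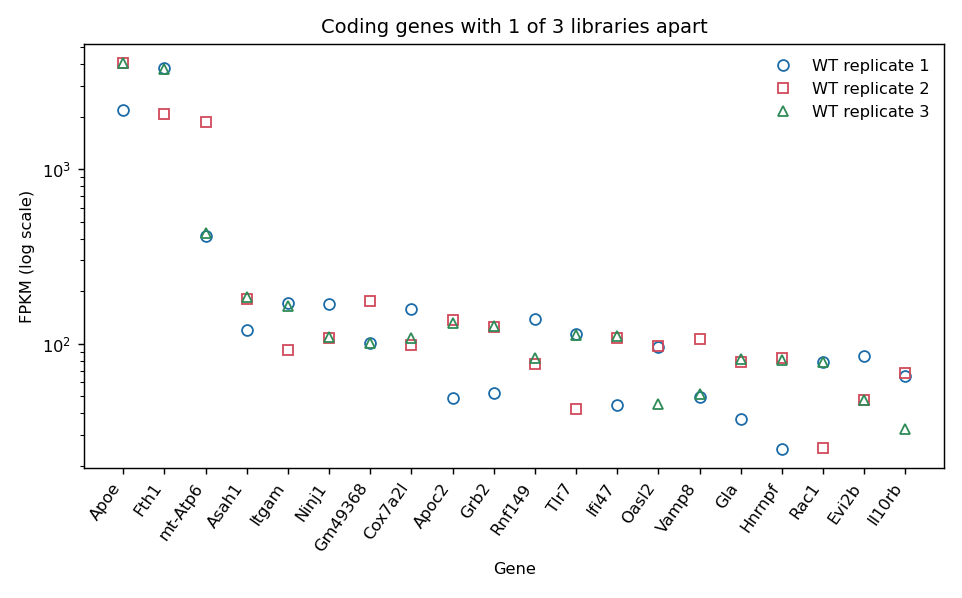
FPKM (log scale) of the 20 highest coding genes with 1 of the 3 WT libraries apart, with a circle, square and triangle for WT replicates 1, 2 and 3, ordered by mean. In each gene 2 symbols lie together and the remaining one is at least 1.5-fold away, as for Apoe in replicate 1 and Fth1 in replicate 2.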

How the data were processed

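The series holds 6 poly(A) RNA-seq libraries of mouse bone marrow-derived macrophages, of which the 3 labelled WT were used. Per the submitters' processing notes, the authors used cutadapt 1.9, HISAT2 2.0.4 and StringTie 1.3.4d with mm10 (GRCm38). Settings, annotation release and kit strand were not given in the sources used here, so an overlapping gene on the other strand can share reads. Per the file headers, the authors deposited FPKM and an estimated count per gene and library. A count of 0 carries an FPKM of 0.0001, and 39.7% of counts from 1 to 20 are multiples of 4, so low counts are not tallies of single reads.

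Genes were ranked by mean FPKM and described by mean ± SD, lists by counts and medians. No test was made. GENCODE M21, which held 99.5% of the identifiers, gave gene classes, and copies were found with blastn 2.17.0 against its coding transcripts. Totals were 67280390 to 68658821 estimated counts per library. The scripts ran in Python 3.11.15 and were tested on simulated data.

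The 47 gene lists (1018 of 1019 members matched by symbol) were chosen with earlier results of these data known. Genes named are 4 markers, the 30 highest, 10 more by counts, up to 6 highest and 4 lowest members of each list, the 10 most variable at 50 FPKM or more and the 5 highest non-coding genes. Other genes named, the ratios, the motifs, the copies, the 3 promoters, the search for 1 library apart and its check against overlapping entries were chosen after values were seen. That search requires the other 2 libraries to exceed 0.1 FPKM, a rule added after its first output was seen. Some genes that the naming rule covers are not reported here. Alternatives were other thresholds, scalings and each library left out.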

Additional observations from a re-analysis of the deposited data

How the results depend on the processing

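Without a minimum level, 17300 genes had a count above 0 in all 3 libraries, against 10385 at 1 FPKM or more, and leaving out 1 library gave 10522 to 10536. Of the 30 highest genes 17 stayed by CPM, and all 30 with any 1 library left out. The 100 highest genes took 45.5% of summed FPKM, but 28.6% by CPM, 43.1% without mitochondrially encoded genes and 44.1% among genes with an implied length of at least 500 bases, and 45.5% to 45.6% with 1 library left out. The median coefficient of variation, 3.24% at 10 FPKM or more, was 5.57% at 1 FPKM or more, 1.72% at 100 or more, 18.4% without a minimum, and 2.50% to 2.55% with 1 library left out, which leaves 2 libraries. Pearson's r across genes, 0.989 with a pseudocount of 0.1, was 0.994 with 1, 0.976 with 0.01, 0.987 in detected genes and 0.993 by CPM. In alternatives chosen after seeing the data, the number of genes with 1 library apart, 96, became 37 at a 2-fold step and 265 by CPM at a mean of at least 10, a minimum that tests more genes. With 1 library left out, no list median over 1 FPKM (114 values) moved by over 1.5 times, while 2 list medians under 1 FPKM did. The mean of 8 of the 197 genes named with a value at 1 FPKM or more moved by over 1.5 times: in FPKM, Rpl17-ps5 from 105 to 58.7 and Gm44805 from 17.7 to the 0.0001 written for a count of 0 without replicate 1, mt-Atp6 from 897 to 421 and Rpl17-ps3 from 129 to 83.0 without replicate 2, and Rps27a-ps2 from 167 to 106, Rpl17-ps8 from 100.4 to 60.6, Rps27rt from 89.8 to 59.4 and Gm12033 from 55.3 to 22.1 without replicate 3. Of the 27 named with a value under 1 FPKM, 6 did, and 5 of these were above 0 in 1 library only. The FPKM of copies and of entries inside other genes depends on how reads were assigned, which the estimated counts do not show. No paired analysis was possible because only the WT group was used.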
